A study of Mus musculus with 96 samples.

Results

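Spleens of wild-type mice and of *Scx-/-* mice, all 3 weeks old, were compared by RNA-seq in 6 libraries, 3 per genotype, out of 96 libraries from 16 tissues. The libraries were those that the labels name as spleen, wild-type or knockout, and a gene was tested if at least 1 of the 6 held a count, which gave 13894 of the 41575 listed genes. Organs were snap-frozen whole, total RNA was extracted, and cDNA was made by a barcoded method that enriches the 3′ ends of transcripts. *Scx-/-* mice carry the knockout in every cell, no agent was given to either group, and the labels name no strain, sex or animal for any library. The part of *Scx* that the allele lacks is not given in the sources used here. Because separate animals are not stated, each test below measures the spread between libraries, which may be partly technical. All differences are log2 fold changes of *Scx-/-* over wild-type with their standard error (SE) from edgeR's quasi-likelihood fit, and levels are library counts scaled to a common total (CPM).

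*Scx* encodes scleraxis, a basic helix-loop-helix transcription factor of tendon and ligament progenitors. The spleen filters blood through its red pulp, where macrophages recycle old red cells, and its white pulp houses B and T lymphocytes around small arteries. In young mice the red pulp also makes red cells, and erythroblasts there express globin, haem and cell-cycle genes before they lose their nucleus. Stromal cells, which in the spleen arise from mesoderm marked by *Tlx1* and *Tcf21*, hold these compartments together.

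*Scx* itself had 0 counts in all 6 spleen libraries, so the targeted gene could not check the genotype labels in this tissue. It lies on mm10 at chr15:76457452-76459458 on the plus strand, inside *Bop1* on the opposite strand. A count of 0 allows up to 3.17 CPM in the pooled wild-type libraries and 4.98 CPM in the pooled *Scx-/-* libraries, counting error only.

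The 6 libraries held 181627 to 467090 counts, and those of wild-type mice were deeper at the top of that range (467090, 289969 and 189757 against 233939, 186699 and 181627). Of 20 defining markers of spleen cell types, 16 had their highest mean among the 16 tissues in the spleen and 14 had a count in all 6 libraries. The B cell gene *Cd79b* averaged 781 CPM against 63.7 CPM in the next tissue, and the red pulp transcription factor gene *Spic* 52.3 against 2.1 CPM. The exceptions were *Cd8a* and *Nkx2-5*, second to other tissues, *Slc40a1*, at rank 3, and *Tcf21*, at rank 5.

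In several respects the libraries of 1 genotype differed among themselves. Transcripts of the pancreatic acinar list, digestive enzymes made by the exocrine pancreas that lies against the spleen, took 2.01%, 1.60% and 0.0116% of the wild-type counts and 0.00855%, 13.1% and 5.78% of the *Scx-/-* counts. *Xist*, transcribed from the inactive X chromosome of females, had 410, 0 and 160 counts in the wild-type libraries and 221, 0 and 0 in the *Scx-/-* libraries, and 4 Y-linked genes together had 0, 62 and 0 against 0, 39 and 39. Wild-type replicates 1 and 3 and *Scx-/-* replicate 1 thus carried *Xist* with no Y-linked count, and the other 3 the reverse. Since 2 of 3 wild-type libraries and 1 of 3 *Scx-/-* libraries were of the first kind, sex and genotype were not balanced.

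At the thresholds of the study, an unadjusted p under 0.05 with a fold change above 2 in either direction, 415 of 13894 genes were called, 2.99% of those tested. Of these, 208 were higher (1.5%) and 207 lower (1.49%) in *Scx-/-* spleens. The calls were thinly covered. In 59 of the 415 the counts came from 1 library, in 108 from 2 libraries, and 250 had no count in either all wild-type or all *Scx-/-* libraries. Among 1620 genes with a mean of at least 100 CPM, 54 were called, 17 higher and 37 lower. At a Benjamini-Hochberg adjusted p under 0.05, edgeR's quasi-likelihood test called 1 gene, *Pdia2* (0.0072%), with 418 genes at an unadjusted p under 0.05, and DESeq2 called 0, with 392 at an unadjusted p under 0.05. The next smallest adjusted p by edgeR was 0.788, which every other gene named below reached or exceeded with all 6 libraries. The split between directions moved with the scaling, to 264 higher and 177 lower with RLE factors and to 158 higher and 328 lower on library totals. The median log2 fold change of all tested genes was -0.18 (0 with genes at 0 in 1 genotype set at their bound), and it was -0.06 and -0.37 under those scalings.

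**Figure D1:**
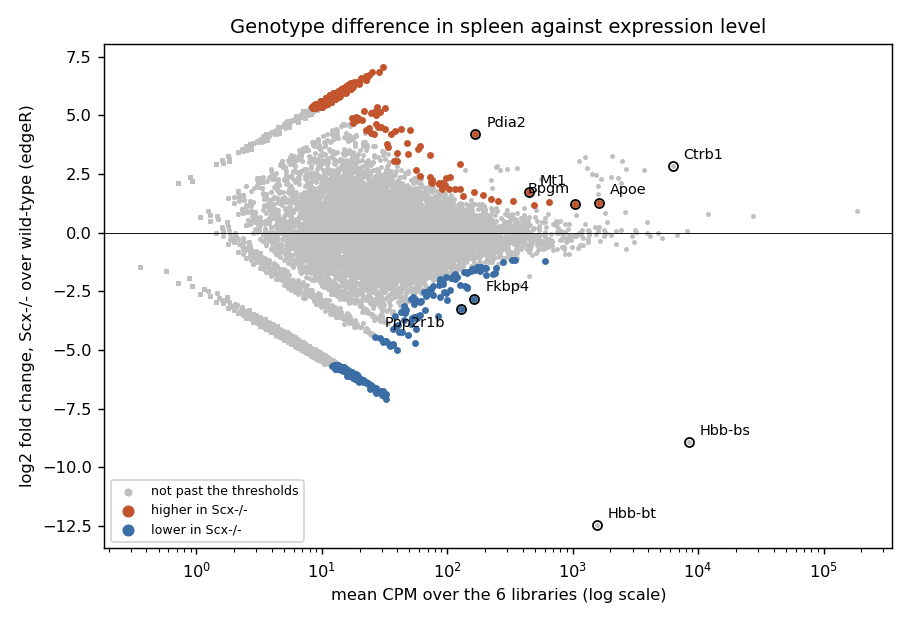
Log2 fold change (*Scx-/-* over wild-type, edgeR) of the 13894 tested genes against their mean CPM over the 6 libraries (log scale), with the 208 higher and 207 lower genes in colour and 9 genes circled. Most coloured points lie under 100 CPM on the arms formed by genes at 0 in 1 genotype, and *Hbb-bs* and *Hbb-bt* at the lower right, both from wild-type replicate 2, did not pass the thresholds.

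*Pdia2*, which encodes a protein disulfide isomerase known from the endoplasmic reticulum of pancreatic acinar cells, was the gene with the strongest evidence of a difference. It was measured at 6.42, 13.8 and 47.4 CPM in the wild-type libraries (3, 4 and 9 counts) and at 59.8, 669.5 and 209 CPM in the *Scx-/-* libraries (14, 125 and 38 counts). Every *Scx-/-* library was above every wild-type library, and the means were 22.5 ± 21.9 and 313 ± 318 CPM (SD, n = 3 each). The log2 fold change was 4.22 (SE 0.79) with an adjusted p of 0.00126 by edgeR. Leaving out 1 library ended the call in 3 of 6 cases, with an edgeR adjusted p of 0.41 when wild-type replicate 1 was missing, 0.819 when wild-type replicate 2 was missing and 0.902 when *Scx-/-* replicate 2 was missing. The call was also lost with DESeq2 (0.078), after a stricter expression filter (1), with the replicate number as a block (0.737) and with sex as a term in the model (1).

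The gene lies at chr17:26195999-26199087 on the minus strand of mm10 and overlaps no other annotated gene. The 250 bases before its RefSeq start are shown with those of *Ctrb1* (chymotrypsinogen B) and *Cela2a* (an elastase), abundant members of the pancreatic list, because *Pdia2* is known from the same cells. Capitals mark the E-box CANNTG, the core bound by basic helix-loop-helix factors, and the TC-box TGGGAA, the other part of the site known for the acinar factor PTF1, on either strand. The sequences are from RefSeq on GRCm38.p6, written along each gene's strand, at chr17:26199088-26199337, chr8:111691011-111691260 and chr4:141826006-141826255. The window of *Cela2a* lies in part inside the gene as GENCODE annotates it, since that annotation starts further upstream.
Pdia2: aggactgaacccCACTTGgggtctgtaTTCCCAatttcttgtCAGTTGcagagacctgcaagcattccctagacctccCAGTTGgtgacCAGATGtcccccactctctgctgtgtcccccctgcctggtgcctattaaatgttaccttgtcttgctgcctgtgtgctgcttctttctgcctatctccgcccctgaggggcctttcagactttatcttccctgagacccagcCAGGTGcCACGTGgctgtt
Ctrb1: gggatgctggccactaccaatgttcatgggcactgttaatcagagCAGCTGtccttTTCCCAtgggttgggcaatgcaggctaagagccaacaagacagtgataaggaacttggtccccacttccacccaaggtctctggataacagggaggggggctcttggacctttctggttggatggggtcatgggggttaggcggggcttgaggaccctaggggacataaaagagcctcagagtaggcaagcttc
Cela2a: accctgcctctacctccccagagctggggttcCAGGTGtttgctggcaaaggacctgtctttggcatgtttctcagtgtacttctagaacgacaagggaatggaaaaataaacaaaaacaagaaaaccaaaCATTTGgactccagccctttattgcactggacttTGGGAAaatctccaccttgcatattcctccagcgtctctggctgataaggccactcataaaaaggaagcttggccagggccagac
*Pdia2* held 6 E-boxes and 1 TC-box, *Ctrb1* 1 of each and *Cela2a* 2 and 1, with no overlap between the kinds of motif. The TC-box was found in 16 of 23 pancreatic promoters that could be matched by symbol (69.6%) and in 21.5% of all 27025 promoters of the same length. E-boxes were found in 82.6% and 66%.

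Within the spleen libraries the pancreatic list and *Pdia2* did not follow one order. *Scx-/-* replicate 1 and wild-type replicate 3 had 20 and 22 pancreatic counts, yet 14 and 9 counts of *Pdia2*, whereas wild-type replicate 1 had 9369 pancreatic counts and 3 of *Pdia2*. In the 6 libraries labelled adipose, where 66.4% to 77.2% of counts were pancreatic, *Pdia2* had 1204 to 2204 CPM. Stomach had 506 to 752 CPM with a median of 2333 CPM for the pancreatic list. Per 1000 pancreatic counts, *Pdia2* had 5.09 and 3.62 counts in *Scx-/-* replicates 2 and 3 and 1.56 to 3.32 in the adipose-labelled libraries. The ratio was 0.32 and 0.86 in wild-type replicates 1 and 2, and 409 and 700 in the 2 libraries with few pancreatic counts. With the pancreatic level of each library as a term in the edgeR model, an alternative chosen after seeing the data, the log2 fold change of *Pdia2* was 3.64 with an adjusted p of 0.0429. With all 26 detected pancreatic genes left out it was 4.23 with an adjusted p of 0.00102 by edgeR. Leaving those genes out does not change the counts of *Pdia2*, so that fit does not test the part of pancreatic tissue in them. All 26 had a log2 fold change above 0, with a median of 2.58 (2.47 with genes at 0 in 1 genotype set at their bound) beside -0.18 for all genes, but 1 passed the thresholds for a rise, beside 1.5% of all genes, the amylase gene *Amy2b* (0, 82.8 and 0 against 0, 214 and 138 CPM, log2 fold change 2.37, SE 1.08). *Amy2b* missed the thresholds in 9 of 15 alternatives, with log2 fold changes from 0.37 to 7.94.

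**Figure D2:**
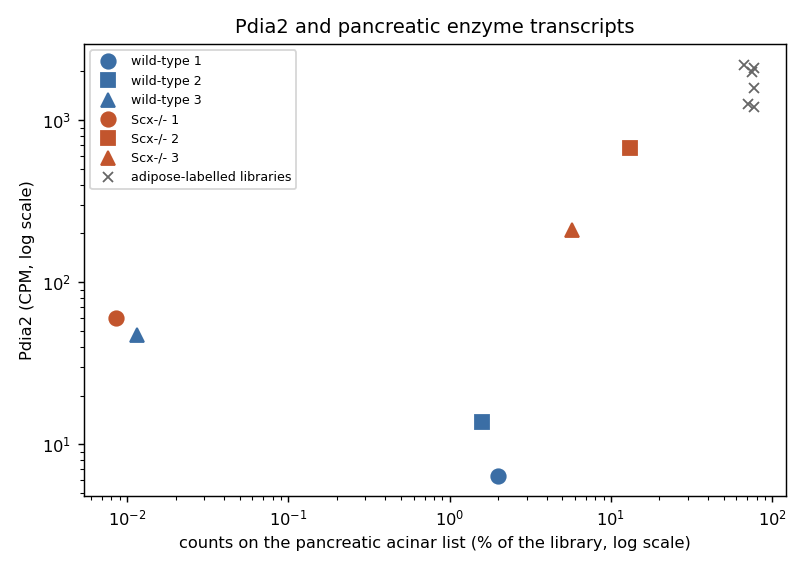
*Pdia2* (CPM, log scale) against the share of counts on the pancreatic acinar list (percent, log scale) in the 6 spleen libraries and, as crosses, in the 6 adipose-labelled libraries. *Scx-/-* replicates 2 and 3 are high on both axes, while *Scx-/-* replicate 1 and wild-type replicate 3 hold more *Pdia2* than the other wild-type libraries at under 0.02% pancreatic counts.

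The rest of the best-supported rises were genes of mixed function. Values are given for wild-type replicates 1, 2 and 3 against *Scx-/-* replicates 1, 2 and 3, here and throughout. The genes were taken from genes past the thresholds with a mean of at least 10 CPM and no overlap between genotypes, a separation seen in 10.8% of all 8894 genes at that level. By direction, 2.17% of those genes were higher in all *Scx-/-* libraries and 8.67% were lower. *Mt1*, the metal-binding metallothionein 1, had 89.9, 338 and 289.8 against 368, 899.8 and 683 CPM (log2 fold change 1.74, SE 0.55). *Apoe*, the lipoprotein of macrophages and liver, had 1265, 1366 and 401 against 1479, 2309 and 2841 CPM (1.29, SE 0.45). Both genotypes expressed these genes in every library, and the closest libraries of the genotypes differed little, 338 and 368 CPM for *Mt1* and 1366 and 1479 CPM for *Apoe*. *Apoe* fell short of the thresholds when wild-type replicate 3 was missing (0.88).

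*Cd83*, a marker of activated dendritic and B cells, had 62.1, 34.5 and 5.27 against 171, 123 and 231 CPM (2.39, SE 0.87). *Chmp7*, an ESCRT-III component of nuclear envelope repair, had 6.42, 20.7 and 5.27 against 42.7, 252 and 22 CPM (3.55, SE 1.25), so *Scx-/-* replicate 3 was close to wild-type replicate 2, and the call was lost when *Scx-/-* replicate 2 was missing (1.72). The zinc finger gene *Zfp637* had 0, 20.7 and 10.5 against 111, 107 and 116 CPM (3.70, SE 1.29), with little spread among *Scx-/-* libraries. *Tbc1d2b*, a Rab GTPase regulator, had 10.7, 3.45 and 5.27 against 111, 102 and 55.1 CPM (3.81, SE 1.45), and *Smim19*, a small membrane protein, 10.7, 0 and 0 against 34.2, 75 and 182 CPM (4.37, SE 1.51). The call of *Smim19* was lost when *Scx-/-* replicate 3 was missing.

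A further 4 rises had no wild-type count, and their folds are lower bounds against a floor of 3 counts over the wild-type group. *Zcchc14*, a zinc finger gene, had 25.6, 64.3 and 93.6 CPM in *Scx-/-* libraries (35 counts) and was at least 18.3-fold higher. *Sept10*, a septin, had 17.1, 58.9 and 66.1 CPM, and *Gnaz*, a G protein alpha subunit, 42.7, 58.9 and 33 CPM, each at least 14.1-fold higher. *Edn3*, the peptide ligand endothelin 3, had 21.4, 32.1 and 82.6 CPM and was at least 13.6-fold higher. All 4 were covered by 26 to 35 counts.

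The promoter window of *Mt1* is shown because *Mt1* was, after *Apoe*, the most abundant of the 12 rises named here, and metallothionein genes are known for metal response elements. At chr8:94178839-94179088, plus strand, GRCm38.p6, capitals mark the core TGCACNC or TGCGCNC, and the last bases lie inside the gene in GENCODE.
Mt1: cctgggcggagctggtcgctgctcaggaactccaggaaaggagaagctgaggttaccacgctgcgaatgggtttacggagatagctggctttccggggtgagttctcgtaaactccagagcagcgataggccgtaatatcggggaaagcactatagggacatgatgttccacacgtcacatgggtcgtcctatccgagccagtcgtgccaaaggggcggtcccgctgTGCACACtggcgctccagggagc
It held 1 such core, which 21.3% of all promoters of this length also held. *Mt2*, the neighbouring metallothionein gene, had 139, 238 and 121 against 98.3, 279 and 110.1 CPM (log2 fold change 0.23, SE 0.70), and its genotypes overlapped.

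The best-supported falls included genes of protein folding, DNA repair, chromatin and cell division, named here by what each is known to do and not tested as groups. *Fkbp4*, a co-chaperone of Hsp90, had 263, 435 and 179 against 51.3, 0 and 60.6 CPM (log2 fold change -2.81, SE 0.79). *Ppp2r1b*, a scaffold subunit of protein phosphatase 2A, had 34.3, 252 and 427 against 25.6, 16.1 and 16.5 CPM (-3.26, SE 0.92). *Selenbp1*, the selenium-binding protein 1 abundant in red cells, had 94.2, 166 and 216 against 0, 26.8 and 5.51 CPM (-3.56, SE 1.16). Each of these 3 passed the thresholds when any 1 of the 6 libraries was left out.

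Among nuclear genes, *Parp1*, a sensor of DNA breaks, had 169, 224 and 358 against 64.1, 42.8 and 11 CPM (-2.36, SE 0.81). *Smarca5*, the ISWI chromatin remodeller, had 141, 162 and 237 against 21.4, 37.5 and 0 CPM (-2.86, SE 1.00). *Bub3*, of the spindle checkpoint, had 203, 362 and 179 against 103, 5.36 and 16.5 CPM (-2.32, SE 0.80), and *Cdk4*, the kinase that drives entry into the cell cycle, 101, 200 and 411 against 17.1, 32.1 and 77.1 CPM (-2.26, SE 0.83). *Scx-/-* replicate 1 was the highest of its genotype for *Parp1* and *Bub3*, and replicate 3 for *Cdk4*. *Stt3a*, the catalytic subunit of oligosaccharyltransferase, had 169, 72.4 and 79 against 4.27, 10.7 and 0 CPM. From 3 *Scx-/-* counts the pooled ratio was 24.4-fold, with an exact 95% counting interval from 8.14 to 120.

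The other 4 falls had 0 counts in *Scx-/-* spleens and were at least 9.12-fold to 13.6-fold lower. *Golph3l*, a Golgi protein, had 77.1, 79.3 and 26.3 CPM in wild-type libraries and *Traf4*, a signalling adaptor, 77.1, 58.6 and 52.7 CPM. *Nqo2*, a quinone reductase, had 92.1, 44.8 and 26.3 CPM, and *Cep295*, a centriole protein, 19.3, 3.45 and 174 CPM, so 1 library gave most counts of *Cep295*. Of the 24 genes in these 2 groups, 9 overlap a coding gene on the opposite strand (*Bub3*, *Cdk4*, *Cep295*, *Gnaz*, *Nqo2*, *Ppp2r1b*, *Smim19*, *Tbc1d2b* and *Zcchc14*). Each of *Bub3*, *Cdk4*, *Stt3a*, *Nqo2* and *Cep295* lost its call when 1 wild-type library was missing, replicate 1 for *Stt3a* and *Nqo2*, replicate 2 for *Bub3* and replicate 3 for *Cdk4* and *Cep295*. The strand setting of the counting is not given, so reads of such pairs cannot be told apart.

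Other called genes with at least 100 CPM included both subunits of the histone chaperone FACT. *Ssrp1* had 250.5, 289.7 and 406 against 179.5, 58.9 and 44 CPM, and *Supt16* 212, 266 and 279 against 167, 32.1 and 16.5 CPM. *Hprt*, of purine salvage, had 261, 310.4 and 353 against 133, 96.4 and 44 CPM and *Tkt*, transketolase of the pentose phosphate pathway, 274, 431 and 432 against 171, 26.8 and 99.1 CPM. All 4, named after their values were seen, fell with no overlap between the genotypes, as did 8.67% of genes of at least 10 CPM. *Supt16* missed the thresholds in 7 of 16 alternatives, *Ssrp1* in 6, *Hprt* in 4 and *Tkt* in 1. The log2 fold changes of these 4 genes ranged from -1.72 for *Tkt* to -1.48 for *Ssrp1*.

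Red cell transcripts filled a large part of every library. The globin list took 24.6%, 13.1% and 19% of wild-type counts and 30.3%, 31.9% and 21.2% of *Scx-/-* counts, with overlap between the genotypes, and 0 of 7 detected members passed the thresholds, beside 2.99% of all genes. *Hba-a1*, an alpha globin, had 14772, 6825 and 6856 against 16799, 16481 and 10081 CPM (log2 fold change 0.78, SE 0.34). *Hba-a2*, its near-identical neighbour, was listed at 0 in 4 libraries and at 1528 and 2081 CPM in replicate 3 of each genotype. Reads of such copies can be assigned to either, so single globin genes are uncertain.

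The beta globin genes separated 1 library from the other 5. *Hbb-bs* and *Hbb-bt* are the adult beta chain pair of the reference strain, and *Hbb-b1* and *Hbb-b2* name the pair of another haplotype of the locus. In wild-type replicate 2, 48.5% of these beta globin counts fell on *Hbb-bs* and *Hbb-bt* (17423 of them, against 18504 on the other pair). In the other 5 libraries that share was 0.00275% to 0.0224%. The replicates numbered 2 of wild-type mice had 38.5% to 59.6% in all other 15 tissues as well, and no library of another number or genotype exceeded 0.594%. *Hbb-b1* read 202128, 53799 and 153881 CPM in wild-type and 248667, 267109 and 175706 CPM in *Scx-/-* libraries (0.94, SE 0.44). The low value was in wild-type replicate 2, where the globin list as a whole was also lowest (13.1%). The kind of sex-linked transcript also matched the spleen library of the same number and genotype in 84 of 90 comparisons over the other tissues.

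**Figure D3:**
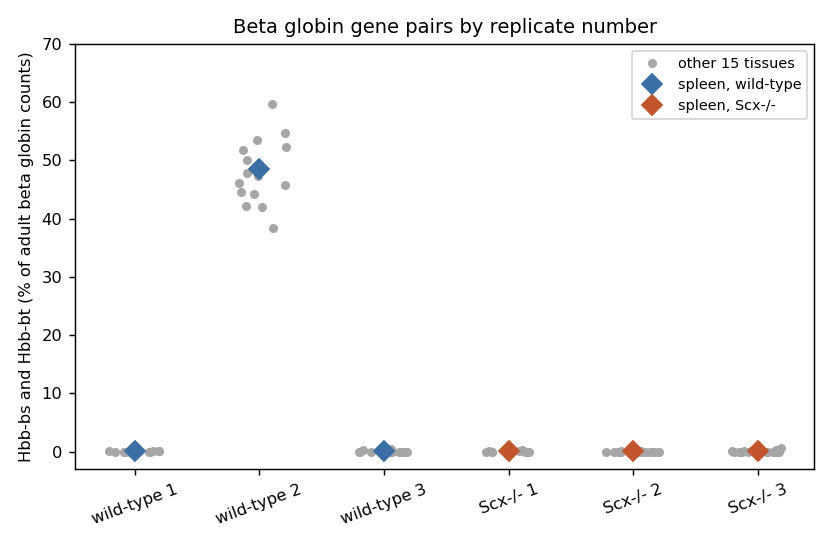
Share of *Hbb-bs* and *Hbb-bt* among adult beta globin counts (percent) by genotype and replicate number, with spleen as diamonds and the other 15 tissues as grey points. Wild-type replicate 2 lies at 38.5% to 59.6% in all 16 tissues, and all other points lie below 0.6%.

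The members of the red cell membrane and haem lists did not all move one way. *Bpgm*, which makes 2,3-bisphosphoglycerate in red cells, had 888, 441 and 717 against 1569, 1687 and 936 CPM (1.24, SE 0.48), with no overlap. *Epb41*, protein 4.1 of the membrane skeleton, had 589, 266 and 364 against 842, 1269 and 534 CPM (1.32, SE 0.51), with *Scx-/-* replicate 3 below wild-type replicate 1. *Bpgm* and *Epb41* each missed the thresholds in 2 of 16 alternatives. These were the 2 called rises among 26 detected genes of the red cell membrane list, beside 1.5% of all genes called higher. The list had 0 called falls, 19 of 26 members with a log2 fold change below 0 and a median of -0.33. *Alas2*, the erythroid enzyme that opens haem synthesis, had 2612, 1711 and 1649 against 3574, 4424 and 1591 CPM (0.91, SE 0.42) and did not pass the thresholds.

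Among 4 genes of erythroblasts, of which *Gata1* and *Tfrc* were picked after their values were seen, the *Scx-/-* libraries split. *Alas2*, *Bpgm* and *Epb41*, by contrast, were highest of all 6 libraries in *Scx-/-* replicate 2. *Gata1*, the master regulator of red cell genes, had 184, 210.4 and 353 against 496, 0 and 11 CPM. *Klf1*, which switches on adult beta globin, had 413, 617 and 859 against 1064, 64.3 and 88.1 CPM, and *Tfrc*, the transferrin receptor that imports iron, 396, 586 and 1391 against 992, 118 and 171 CPM. *Slc4a1*, the band 3 anion exchanger, had 2216, 1783 and 3536 against 4993, 943 and 1145 CPM. *Scx-/-* replicate 1 was above all wild-type libraries for *Gata1*, *Klf1* and *Slc4a1*, and *Scx-/-* replicates 2 and 3 were below all of them. *Tfrc* in replicate 1 lay inside the wild-type range. None of these 4 genes passed the thresholds over all 6 libraries, with log2 fold changes from -0.62 (SE 0.52) for *Tfrc* to 0.13 (SE 0.42) for *Slc4a1*.

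The sums of 3 red cell lists were also lowest in *Scx-/-* replicates 2 and 3, while the globin share was highest in replicate 2. Summed over 26 red cell membrane genes the libraries had 10968, 12470 and 22450 CPM in wild-type and 23314, 5742 and 5781 CPM in *Scx-/-* spleens. For 22 haem and iron genes the sums were 13627, 14388 and 23435 against 21437, 10504 and 9057 CPM, and for 20 erythroid transcription factor and receptor genes 3721, 4097 and 5238 against 6027, 2309 and 2230 CPM. In the haem list 0 members were called and 19 of 22 had a log2 fold change below 0 (median -0.41), beside 7619 of 13894 below 0 and a median of -0.18 for all genes. In the transcription factor list 1 was called lower, beside 1.49% of all genes, *Tal1*, a partner of Gata1, at 141, 189.7 and 364 against 158, 0 and 16.5 CPM (-1.70, SE 0.79), which missed the thresholds in 5 of 16 alternatives. *Scx-/-* replicates 2 and 3 were also those with 13.1% and 5.78% pancreatic counts and with Y-linked transcripts. Recomputed on totals without pancreatic and globin counts, the red cell membrane sums were 14952, 14614 and 27720.1 against 33452, 10449 and 7918, and *Scx-/-* replicates 2 and 3 stayed lowest. The haem sums on those totals were 18577, 16861 and 28937 against 30759, 19114 and 12405, and *Scx-/-* replicate 2 then lay inside the wild-type range. Fewer cells of a type and less RNA per cell cannot be told apart in whole-tissue RNA.

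**Figure D4:**
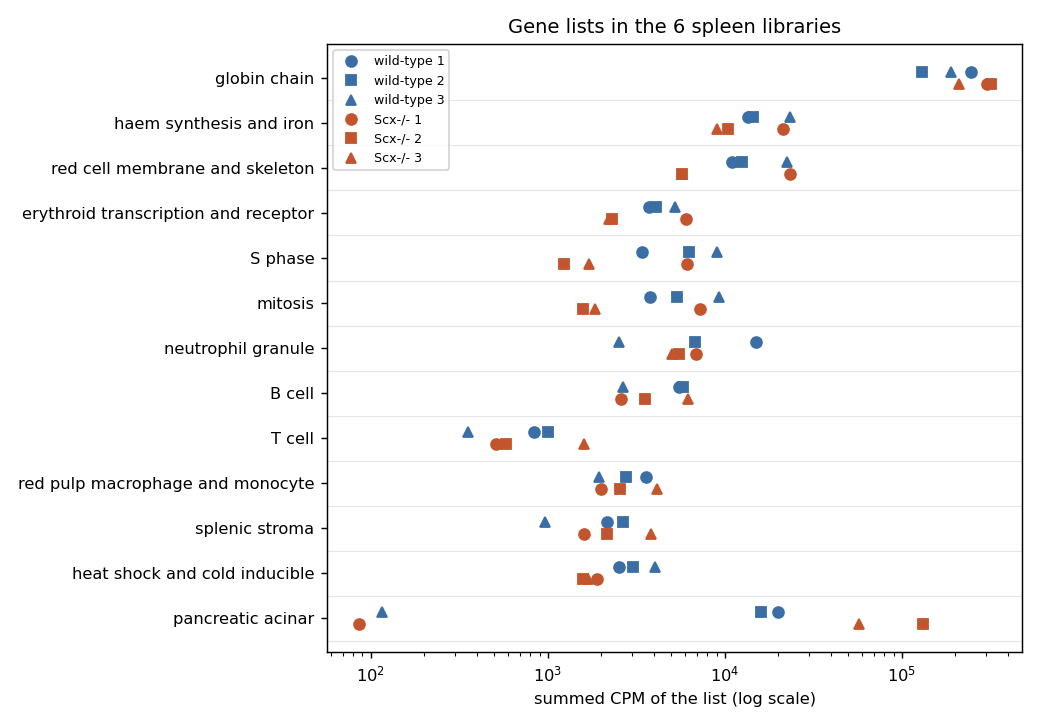
Summed CPM (log scale) of 13 gene lists in each spleen library, wild-type in blue and *Scx-/-* in orange, with the replicate number as the marker shape. The haem, red cell membrane, erythroid regulator, S phase and mitosis lists place *Scx-/-* replicates 2 and 3 below all wild-type libraries, with replicate 1 inside or above the wild-type range, and the pancreatic list ranges from 85.5 to 131463 CPM.

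Leaving out *Scx-/-* replicate 1 changed the number of adjusted calls more than leaving out any other library, while leaving out wild-type replicate 2 lowered the calls at the study's thresholds most, from 415 to 179. The number of genes at an adjusted p under 0.05 by edgeR was then 39 of 13517 (0.289%), against 1 with all 6, and with any of the other 5 left out it was 0 or 1. Of the 39, 30 were lower and 9 higher in the remaining *Scx-/-* libraries, and 12 of the 30 belong to the 3 erythroid lists and 5 to the S phase or mitosis lists. *Rhd*, a red cell membrane protein of the Rh complex, had 276, 497 and 701 against 0 and 55.1 CPM, with 863 CPM in the library left out (log2 fold change without it -3.99, adjusted p 0.000219 by edgeR). *Car2*, carbonic anhydrase 2, had 1997, 2976 and 5412 against 418 and 1013 CPM, with 4039.5 CPM in that library (-2.09, adjusted p 0.000555). For 31 of the 39 genes replicate 1 lay inside the wild-type range, so these calls describe 2 libraries and not the genotype as sampled.

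At the thresholds of the study the falls without that library numbered 465 of 13517 (3.44%) and the rises 264. The falls included 10 of 22 haem genes, 16 of 26 red cell membrane genes, 6 of 20 erythroid regulators, 16 of 32 S phase genes and 14 of 34 mitosis genes. The 9 higher genes among the 39 adjusted calls were *Pdia2*, *Mt1*, *Apoe*, the gastric *Tff2* and 5 secretory genes, *Sycn*, *Spink1*, *Gp2*, *Dmbt1* and *Klk1*. In *Scx-/-* replicate 1 and wild-type replicate 3 these 5 had 0 counts.

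**Figure D5:**
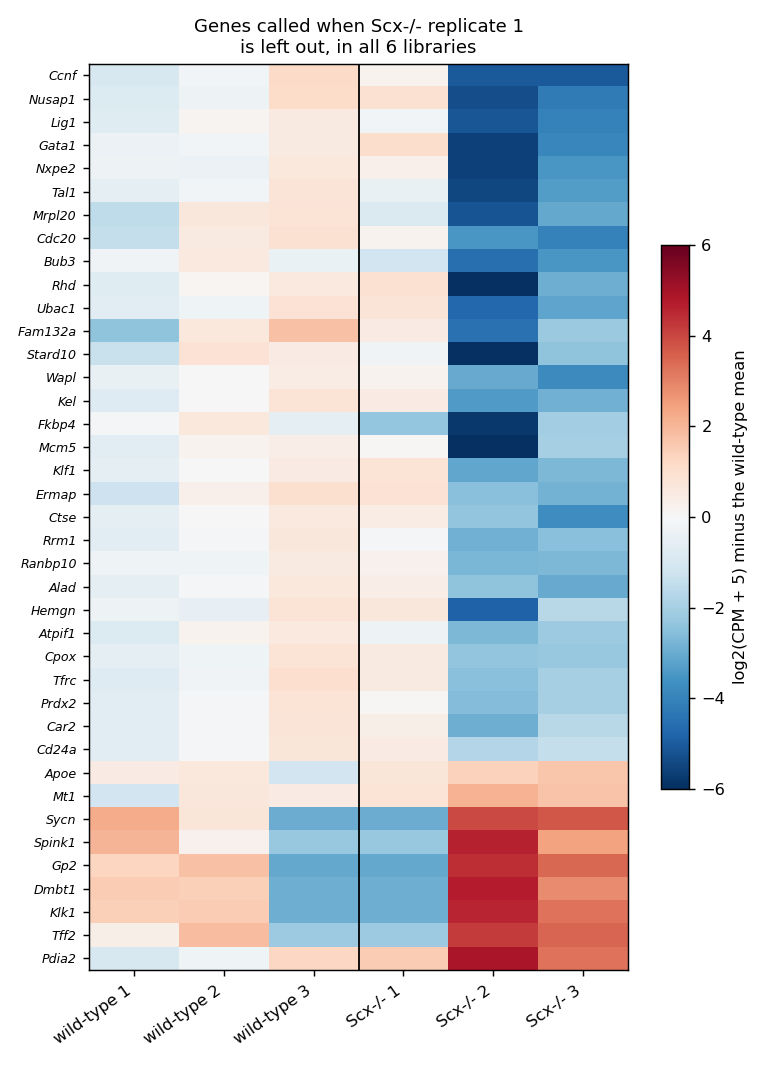
The 39 genes with an adjusted p under 0.05 when *Scx-/-* replicate 1 is left out, in all 6 libraries, as log2(CPM + 5) minus the wild-type mean (blue lower, red higher). The 30 genes in the upper rows are blue in *Scx-/-* replicates 2 and 3, replicate 1 lies inside or above the wild-type range for all of them but *Fkbp4* and *Bub3*, where it lies below, and the pancreatic genes near the bottom are low in wild-type replicate 3 and *Scx-/-* replicate 1.

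The promoter windows of 3 erythroid genes are shown for the GATA motif AGATAA, the core bound by Gata1, in capitals on either strand. They lie on GRCm38.p6 at chrX:150547167-150547416 (*Alas2*), chr4:115056176-115056425 (*Tal1*) and chr4:134864286-134864535 (*Rhd*), all on the plus strand, and the end of the *Alas2* window lies inside the gene in GENCODE.
Alas2: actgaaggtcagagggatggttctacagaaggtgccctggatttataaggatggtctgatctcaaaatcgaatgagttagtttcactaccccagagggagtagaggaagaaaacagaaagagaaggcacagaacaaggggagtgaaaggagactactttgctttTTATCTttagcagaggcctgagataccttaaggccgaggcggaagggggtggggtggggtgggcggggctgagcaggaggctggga
Tal1: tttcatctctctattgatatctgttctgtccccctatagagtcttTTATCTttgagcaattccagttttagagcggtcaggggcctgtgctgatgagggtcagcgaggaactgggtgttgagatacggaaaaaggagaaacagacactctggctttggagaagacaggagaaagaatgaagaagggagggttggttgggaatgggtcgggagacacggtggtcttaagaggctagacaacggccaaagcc
Rhd: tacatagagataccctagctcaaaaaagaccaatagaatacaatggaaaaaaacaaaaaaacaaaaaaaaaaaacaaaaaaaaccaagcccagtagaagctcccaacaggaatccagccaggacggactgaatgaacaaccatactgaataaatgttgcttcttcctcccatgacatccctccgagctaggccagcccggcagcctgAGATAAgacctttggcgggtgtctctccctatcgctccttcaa
Each held 1 copy, but most erythroid genes did not, and *Gata1*, *Klf1*, *Tfrc*, *Bpgm* and *Epb41* held 0. The motif was in 5 of 18 matched promoters of the red cell membrane list, 2 of 18 of the haem list and 2 of 15 of the regulator list, beside 10.3% of all promoters and 7 of 23 of the pancreatic list. *Alas2* was high in *Scx-/-* replicates 1 and 2 (3574 and 4424 CPM), while *Tal1* and *Rhd* were at 0 in replicate 2.

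Cell-cycle genes had the lowest medians among the lists with at least 20 detected members. Of 32 detected S phase genes, 31 had a log2 fold change below 0 (median -1, beside -0.18 for all genes), and 4 were called lower and 0 higher, against 1.49% and 1.5% of all genes. The called genes were the replicative helicase subunit *Mcm2* (133, 379 and 353 against 137, 21.4 and 77.1 CPM), the ribonucleotide reductase subunit *Rrm1* (302, 448 and 759 against 432, 58.9 and 77.1 CPM), the clamp loader subunit *Rfc4* (66.4, 169 and 94.9 against 21.4, 0 and 0 CPM) and the uracil glycosylase *Ung*. *Ung* had 49.2, 10.3 and 63.2 CPM in wild-type and 0 counts in *Scx-/-* libraries, at least 8.06-fold lower. The genotypes did not overlap for *Rfc4* and *Ung*, and for *Mcm2* and *Rrm1* *Scx-/-* replicate 1 fell inside the wild-type range. *Rrm1* missed the thresholds in 9 of 16 alternatives, *Mcm2* in 4 of 16, *Ung* in 3 of 15 and *Rfc4* in 1 of 16, and with 1 library missing *Rrm1* kept its call in 2 of 6 fits and *Mcm2* in 3 of 6. Summed over the list, the libraries had 3430, 6277 and 9101 against 6108, 1243 and 1707 CPM.

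Of 34 detected mitosis genes, 26 had a log2 fold change below 0 (median -0.57), beside 7619 of 13894 for all genes. The 1 called lower, beside 1.49% of all genes, was the spindle checkpoint kinase gene *Bub1b*, at 70.7, 134 and 169 against 12.8, 16.1 and 0 CPM (-3.31, SE 1.31). *Mki67*, the proliferation marker Ki-67, had 531, 524 and 1312 against 889, 177 and 187 CPM (-0.66, SE 0.52). The list sums were 3794, 5414 and 9275 against 7250, 1580 and 1844 CPM, so *Scx-/-* replicate 1 again stood with the wild-type libraries.

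White cell lists showed few called genes, and each count in the lists below stands beside 1.5% of all genes called higher and 1.49% called lower. Of 24 B cell genes, 12 lay above and 12 below 0 (median 0.01), and the list sums of 5554, 5832 and 2672 against 2608, 3557 and 6194 CPM overlapped. The B cell receptor chain gene *Cd79b* had 1040.5, 928 and 427 against 492, 723 and 1074 CPM (0.08, SE 0.49). *Cd72*, a B cell inhibitory co-receptor, was the 1 call, lower at 165, 279 and 195 against 42.7, 21.4 and 116 CPM (-1.68, SE 0.80), and it missed the thresholds in 7 of 16 alternatives, keeping its call in 2 of 6 fits with 1 library missing. For 22 T cell genes the median was 0.22 with 0 calls, and the sums were 837, 1000.1 and 353 against 509, 578 and 1613 CPM. *Tcf7*, a transcription factor of naive T cells, had 70.7, 114 and 15.8 against 42.7, 69.6 and 352 CPM (1.27, SE 0.84). *Scx-/-* replicate 3 had the highest B and T cell sums, and wild-type replicate 3 the lowest T cell sum.

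The MHC class II list had counts for 2 of 11 listed genes, the invariant chain gene *Cd74* at 925, 814 and 485 against 462, 723 and 1156 CPM (0.22, SE 0.50) and the transactivator gene *Ciita* at 89.9, 31 and 5.27 against 133, 107 and 154 CPM (1.66, SE 0.94). *Ciita* did not overlap between the genotypes and did not pass the thresholds. Plasma cell genes (10 detected, median -0.22, or 0 with genes at 0 in 1 genotype set at their bound) and NK and cytotoxic genes (8 detected, median -0.41, or -0.53) had 0 calls. Of 11 dendritic cell genes 1 was called, the transcription factor gene *Batf3*, with 0 counts in wild-type and 13 in *Scx-/-* libraries (21.4, 0 and 44 CPM), at least 6.81-fold higher, and it missed the thresholds in 9 of 15 alternatives. Mast cell and basophil genes had 6 detected members, 0 calls and a median of -1.43 (-0.17 with genes at 0 in 1 genotype set at their bound).

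Neutrophil genes were highest in wild-type replicate 1, and the red pulp macrophage and monocyte list in *Scx-/-* replicate 3 (4140.4 CPM, against 3610 CPM in wild-type replicate 1). The 23 neutrophil granule genes summed to 15098, 6808 and 2524 CPM in wild-type and 6933, 5533 and 5060 CPM in *Scx-/-* spleens, and 17 had a log2 fold change below 0 (median -0.46). *S100a9*, a calprotectin subunit, had 4901, 2152 and 869.5 against 1996, 1730.1 and 1586 CPM (-0.46, SE 0.43). The 1 call was *Ms4a3*, a marker of granulocyte and monocyte progenitors, with 55.7, 27.6 and 15.8 CPM in wild-type and 0 counts in *Scx-/-* libraries, at least 7.85-fold lower, and it missed the thresholds in 5 of 15 alternatives. Of 22 red pulp macrophage and monocyte genes 1 was called, *Ly6c2* of inflammatory monocytes, lower at 377, 162 and 169 against 29.9, 64.3 and 121 CPM (-1.62, SE 0.75), which missed the thresholds in 6 of 16 alternatives. *Vcam1*, the adhesion molecule of red pulp macrophages, had 452, 245 and 94.9 against 333, 321 and 710.2 CPM (0.86, SE 0.56).

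The platelet list had a median below that of all genes, and the stromal, endothelial and matrix lists had medians above it. The megakaryocyte and platelet list had 16 detected genes, a median of -0.71 (-0.43 with genes at 0 in 1 genotype set at their bound) and 1 call, *Gp5* of the von Willebrand factor receptor, higher at 17.1, 31 and 47.4 against 137, 69.6 and 154 CPM (2.14, SE 1.06). *Gp5* missed the thresholds in 8 of 16 alternatives and kept its call in 2 of 6 fits with 1 library missing. The splenic stroma list had 18 detected genes, 13 above 0, a median of 0.48 and 0 calls. Its chemokine gene *Cxcl12* had 315, 497 and 47.4 against 338, 525 and 754 CPM (1.06, SE 0.55), and *Coch* 876, 952 and 200.3 against 633, 541 and 1206 CPM (0.35, SE 0.50). Wild-type replicate 3 was the lowest library for both. The endothelial list (18 detected, median 0.29) had 0 calls, and the collagen and matrix list (26 detected, median 0.18) had 1, *Col14a1*, a fibril-associated collagen, lower at 236, 176 and 169 against 0, 53.6 and 88.1 CPM (-1.90, SE 0.85), which missed the thresholds in 4 of 16 alternatives.

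Stress-related lists held several of the named changes. The 14 detected heat shock and cold-inducible genes summed to 2516, 3021 and 4053 CPM in wild-type and 1889, 1591 and 1690 CPM in *Scx-/-* spleens with no overlap, which 4 of the 31 lists showed, and their median was -0.91. *Hsp90aa1*, the inducible Hsp90, had 66.4, 214 and 153 against 17.1, 0 and 66.1 CPM (-2.22, SE 1.06), and *Dnajb1*, an Hsp40, 55.7, 210.4 and 269 against 89.8, 0 and 22 CPM (-1.94, SE 0.92). *Cirbp*, an RNA-binding protein induced by cold, moved the other way at 42.8, 17.2 and 21.1 against 4.27, 102 and 269.8 CPM (2.23, SE 1.06), although *Scx-/-* replicate 1 was the lowest library. *Hsp90aa1* and *Dnajb1* each missed the thresholds in 6 of 16 alternatives and kept the call in 2 of 6 fits with 1 library missing, and *Cirbp* missed them in 7 of 15, with values down to 0.86. *Hspa8*, a constitutive Hsp70, was listed at 0 in wild-type replicate 2 and *Scx-/-* replicate 1 and at 38.5 to 1328 CPM in the others. On totals without pancreatic and globin counts the heat shock sums were 3429, 3540.4 and 5004 against 2711, 2895 and 2315, still with no overlap. On those totals the separation depended on *Hspa8*, which had 554 CPM in wild-type replicate 1 and 0 in *Scx-/-* replicate 1.

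Of 13 detected glucocorticoid-responsive and metallothionein genes, 4 were called higher and 0 lower (median 0.57), beside 1.5% of all genes called higher. Besides *Mt1* they were *Txnip*, an inhibitor of thioredoxin (522, 359 and 73.8 against 171, 798 and 1046 CPM), *Klf9* (64.2, 37.9 and 0 against 115, 0 and 325 CPM) and *Pdk4*, which restrains pyruvate oxidation (8.56, 0 and 0 against 0, 96.4 and 110.1 CPM). The list sums overlapped, at 1871, 1611 and 912 against 1458, 2512 and 3948 CPM. The genotypes also overlapped for these 3 genes, since *Scx-/-* replicate 1 was low for *Txnip* and *Pdk4* and replicate 2 for *Klf9*. *Mt1* passed the thresholds in 16 of 16 alternatives, but *Txnip* missed them in 10 of 16, *Klf9* in 8 of 16 and *Pdk4* in 6 of 15. The interferon list (30 detected, median -0.21) had 1 call, the interferon-induced *Ifit2*. It had 2.14, 0 and 111 CPM in wild-type spleens, almost all from 1 library, and no *Scx-/-* count, at least 4.66-fold lower, and it missed the thresholds in 8 of 15 alternatives. Immediate early genes (19 detected, median -0.22) and endoplasmic reticulum chaperones (18 detected, median -0.19) had 0 calls. The interferon and chaperone sums were lower in all *Scx-/-* libraries (992 to 1446 against 1597 to 1890 CPM, and 2539 to 2819 against 3120 to 4390 CPM). Both overlapped between the genotypes on totals without pancreatic and globin counts.

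Lists of neighbouring tissues gave small sums apart from the pancreas. Of 13 detected gastric and intestinal genes, 2 were called higher, beside 1.5% of all genes. They were *Tff2*, a trefoil peptide of gastric mucus, at 23.6, 75.9 and 0 against 0, 407 and 253 CPM (2.93, SE 0.85) and *Pgc*, pepsinogen C, with 14 counts in *Scx-/-* replicate 2 alone, at least 7.34-fold higher. *Tff2* missed the thresholds in 6 of 16 alternatives, with log2 fold changes from 0.70 to 4.02, and *Pgc* in 6 of 14. *Tff2* was high where the pancreatic list was high and 0 in the 2 libraries with the fewest pancreatic counts. Hepatocyte genes (17 detected, median 1.22) summed to 790.0, 852 and 337 against 1637, 744.5 and 1195 CPM, and their 1 call, albumin (*Alb*), had 229, 245 and 132 against 722, 262 and 413 CPM (1.37, SE 0.58). *Alb* missed the thresholds in 4 of 16 alternatives. It did not overlap between the genotypes, and its highest library, *Scx-/-* replicate 1, had next to no pancreatic counts. Adipocyte (12 detected), skeletal muscle (9), squamous keratin (6) and sex-linked genes (5) had 0 calls. The keratin sums did not overlap, at 25.7, 37.9 and 5.27 against 59.8, 64.3 and 60.6 CPM. The part of these other tissues in the genotype differences was not tested beyond the pancreatic term.

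Bone, which holds marrow, was the other tissue with blood-forming cells, and the question was whether the genotype difference there differed from that in spleen. In the 6 bone libraries 433 of 12344 genes passed the thresholds (3.51%) and 0 had an adjusted p under 0.05. Of 5339 genes tested for an interaction of tissue and genotype by edgeR, 0 had an adjusted p under 0.05 (0%), with 373 at an unadjusted p under 0.05. Whether same-numbered libraries of spleen and bone came from 1 animal is not given, and the fit treated them as separate. *Scx-/-* replicates 1 and 2 of bone carried the opposite kind of sex-linked transcript to those of spleen, so these numbers did not mark the same kind of library in both tissues. Wild-type replicates 1, 2 and 3 and *Scx-/-* replicate 3 of bone carried the same kind as in spleen. The smallest adjusted p was 0.115, for *Cldn13*, a claudin of erythroblasts, at 195, 352 and 985 against 547, 42.8 and 187 CPM in spleen but 0, 0 and 0 against 204, 225 and 142 CPM in bone. *Car1*, carbonic anhydrase 1, had 109, 952 and 195 against 876, 219.6 and 159.7 CPM in spleen and 0, 0 and 21.2 against 312, 483 and 71 CPM in bone. Several bone libraries were shallow. In bone, 1 count stood for 16.7 and 21.2 CPM in wild-type replicates 2 and 3 and for 23.7 CPM in *Scx-/-* replicate 3. Zeros and low values there are therefore uncertain, and the interaction test had little depth to work with. *Pdia2* differed by -0.43 on the log2 scale between the tissues, with few counts in bone.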

How the data were processed

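RNA was measured in 6 spleen libraries, 3 per genotype. The deposited values are raw counts per gene symbol. Per the submitters' processing notes, the authors used Bowtie2, HTSeq and the build mm10. The sources used here do not give versions, annotation, strand setting or the use of molecular identifiers. The paper calls the libraries 3′-enriched and the series record calls them Smart-seq2-based.

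Counts were fitted with edgeR 4.0.16 (R 4.3.3): TMM factors, robust glmQLFit, and Benjamini-Hochberg adjustment over all 13894 genes with a count. DESeq2 1.42.0, the authors' tool, was an alternative. CPM was computed on library totals, which ran from 181627 to 467090. The scripts were tested on simulated data. Python 3.11.15, pandas 2.3.3, scipy 1.17.1 and matplotlib 3.10.9 served for tables and figures. Coordinates come from GENCODE M21 (GRCm38).

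The spleen, the 31 gene lists and the tests were chosen with earlier results of these data known. Named genes were *Scx*, up to 12 rises and 12 falls (adjusted p under 0.05, filled from called genes of at least 10 CPM whose genotypes did not overlap, by p), the 3 most abundant members of lists of spleen cells, called list members and the 10 most abundant genes. Genes outside that rule, such as *Gata1*, *Tfrc*, *Mt2*, *Hprt* and *Cldn13*, were named after their values were seen, and not every gene it covers is printed. Intervals and floors cover counting error only. Permutation tests of list sums were planned but are not reported; with 3 against 3 libraries they cannot go below p = 0.1. Alternatives were the scaling, filter, tool, block and thinning, each library left out, globin genes left out and, chosen after seeing the data, pancreatic genes left out and pancreatic level or sex as a term. Replicates differed by more than counting error (lowest chi-square over its degrees of freedom 12.7).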

Additional observations from a re-analysis of the deposited data

How the results depend on the processing

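Without 1 library at a time, genes past the study's thresholds numbered from 179 (without wild-type replicate 2) to 729 (without *Scx-/-* replicate 1), beside 415, with 272 when wild-type replicate 1 and 238 when wild-type replicate 3 was missing. Genes at an adjusted p under 0.05 by edgeR ranged from 0 to 39, beside 1. The expression filter left 3958 genes, 80 calls (33 higher, 47 lower) and 0 at an adjusted p. With sex as a term, chosen after seeing the data, there were 224 calls (78 higher) and 2 at an adjusted p, *Hbb-b1* and *Hbb-bt*. With the pancreatic level as a term there were 542 calls (110 higher) and 2, *Ctrc* and *Pdia2*. DESeq2 gave 392 calls and 0 at an adjusted p. RLE, library totals, thinning, and leaving out globin or pancreatic genes kept the number of calls within 1.5 times of 415 and 1 gene at an adjusted p.

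The replicate number was fitted as a block although the labels tie no wild-type to a *Scx-/-* mouse. Same-numbered libraries had correlations of deviations of -0.25, 0.07 and -0.13, which show no pairing of the genotypes by number. *Hba-a2*, however, was counted only in replicate 3 of each genotype (290 and 378 counts). Whether same-numbered libraries shared a processing step was not tested. The replicate block gave 132 calls and 1 gene at an adjusted p, *Hbb-bt*, which is counted in wild-type replicate 2 alone. The interaction with bone gave 0 genes with the block, RLE factors or no filter, and 0 to 6 with 1 of the 12 libraries left out (6 without spleen *Scx-/-* replicate 1, 1 without bone *Scx-/-* replicate 3).

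Of 50 called genes, those of the naming rule and *H19*, 16 passed them under every alternative that could be fitted, among them *Pdia2*, *Mt1*, *Cd83*, *Fkbp4* and *Parp1*, and none changed sign. Of 12 called genes named after their values were seen, such as *Ssrp1*, *Hprt* and *Glrx3*, 0 passed under every alternative, and *Rpl3* reversed to -0.34 with the replicate block and -5.15 without *Scx-/-* replicate 1 (up to 3.46 without wild-type replicate 3). *Slc4a1*, not called with all libraries (0.13), was called lower at -1.06 without *Scx-/-* replicate 1 and had 0.50 without *Scx-/-* replicate 3. The cause of these shifts was not tested. Depth limits all calls under about 10 CPM, where a library holds 2 to 5 counts.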

Other observations

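Genes of protein synthesis, protein turnover and energy supply were grouped by symbol after the data were seen. Of all 13894 tested genes, 7619 had a log2 fold change below 0, 1.49% were called lower and 1.5% higher, and the counts below stand beside these. Of 76 detected respiratory chain and ATP synthase genes, 58 had a log2 fold change below 0 (median -0.37, beside -0.18 for all genes) and 2 were called, both lower. *Uqcrq*, a subunit of complex III, had 105, 583 and 427 against 107, 37.5 and 138 CPM (wild-type against *Scx-/-* replicates 1, 2 and 3), and *Ndufb10*, of complex I, 126, 335 and 321 against 34.2, 42.8 and 171 CPM. Wild-type replicate 1 lay among the *Scx-/-* libraries for both. *Ndufb10* missed the thresholds in 9 of 16 alternatives and *Uqcrq* in 2 of 16. The list sums were 10405, 17833 and 17359 against 11584, 7568 and 10373 CPM, and they overlapped, as they did on totals without pancreatic and globin counts (14185, 20899 and 21434 against 16622, 13773 and 14207).

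Of 34 proteasome genes 2 were called lower (median -0.28), and of 8 genes of the chaperonin TRiC 7 lay below 0 and 1, *Cct8*, was called lower, at 179.8, 348 and 458 against 42.7, 107 and 88.1 CPM (log2 fold change -1.78, SE 0.69). Mitochondrial ribosomal proteins had 3 called falls among 72 (median -0.34). Cytosolic ribosomal proteins had 1 fall and 2 rises among 77, with 48 below 0 (median -0.21). The rises were *Rpl30* at 6.42, 0 and 10.5 against 47, 107 and 33 CPM and *Rpl3*, with 66 counts in *Scx-/-* replicate 1 and 0 in the other *Scx-/-* libraries, whose direction reversed without that library. *Rpl30* missed the thresholds in 7 of 15 alternatives. Genes of this family have many processed copies, so reads may be split between them.

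*Vsir*, the T cell checkpoint protein VISTA, was among the called genes outside all lists, at 81.4, 51.7 and 116 against 222, 187 and 325 CPM (1.74, SE 0.72). *Igfbp3*, which binds insulin-like growth factors, had 135, 121 and 42.2 against 167, 171 and 523 CPM (1.60, SE 0.68). Neither overlapped between the genotypes. *Igfbp3* missed the thresholds in 5 of 16 alternatives and *Vsir* in 1 of 16. *Glrx3*, a glutaredoxin of iron-sulfur handling, was lower in all 3 *Scx-/-* libraries, at 116, 186 and 242 against 25.6, 16.1 and 44 CPM (-2.44, SE 0.95).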
